A study of Homo sapiens with 60 samples.

Results

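CCN1, CCN2, ANKRD1, AMOTL2 and TEAD1 are 5 genes of the YAP/TEAD programme, and the regions described here are the CUT&RUN peaks that overlap these genes or the 50 kb on each side of them. Every deposited peak in these windows was taken, whatever its score, which gave 628 of the 507516 peaks in 24 lists. Of these, 616 came from the antibodies against H3K27Ac, RAD21 and PDS5A, and 12 from IgG, the non-specific control antibody. The gene coordinates are on GRCh37: CCN1 at chr1:86046444-86049648, CCN2 at chr6:132269316-132272518, ANKRD1 at chr10:92671857-92681033, AMOTL2 at chr3:134074711-134094250 and TEAD1 at chr11:12695969-12966284. CCN1 and TEAD1 lie on the plus strand and the other genes on the minus strand.

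In CUT&RUN a nuclease tethered to an antibody releases the chromatin around the bound site for sequencing. It was run on PC9 cells, an established human lung adenocarcinoma line that depends on mutant EGFR. Rescue cells overexpress METTL7A, a methyltransferase-like protein, in the METTL7A knockout background, KO cells are METTL7A knockout cells, and WT cells are wild-type PC9 cells. Each genotype was exposed to the EGFR inhibitor osimertinib, with escalating doses from 100 nM upwards for 6 to 8 weeks, or left untreated. All 6 conditions are bulk cultures of the same line, and no source used here says whether the knockout is a single clone. Each list joins 2 replicates of 1 antibody, genotype and treatment, and separate cultures for the replicates are not stated either. The METTL7A locus was not analysed here, so the genotype labels were not checked.

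YAP and its relative TAZ are co-activators held back by the Hippo kinases, and they reach DNA mainly through the TEAD transcription factors, often at enhancers shared with AP-1. CCN1 (CYR61) and CCN2 (CTGF), the matricellular growth regulators, and ANKRD1 are classical read-outs of this activity, while AMOTL2 encodes an angiomotin family protein that binds YAP and holds it in the cytoplasm. YAP and TEAD activity has been linked to the survival of EGFR-mutant lung cancer cells under EGFR inhibitors. H3K27Ac marks active promoters and enhancers, RAD21 is a core subunit of the cohesin ring that holds chromatin loops, and PDS5A is a cohesin-bound protein that regulates its release from and stay on DNA.

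The promoters of the target genes are shown because TEAD factors bind the core GGAATG, whose reverse complement is CATTCC. RefSeq promoters (GRCh38.p14, 250 bases before to 50 after the annotated start, written 5′ to 3′ in the direction of transcription) were matched for 3 of the 5 genes, with 4 promoters. Capitals mark the TEAD core on either strand.
CCN2 promoter, chr6:131951323-131951622, minus strand: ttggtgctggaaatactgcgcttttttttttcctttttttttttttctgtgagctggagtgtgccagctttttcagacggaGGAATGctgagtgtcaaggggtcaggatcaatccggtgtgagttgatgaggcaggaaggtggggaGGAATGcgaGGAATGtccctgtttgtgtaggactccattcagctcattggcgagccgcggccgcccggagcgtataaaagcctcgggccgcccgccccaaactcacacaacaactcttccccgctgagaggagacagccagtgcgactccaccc
ANKRD1 promoter, chr10:90921038-90921337, minus strand: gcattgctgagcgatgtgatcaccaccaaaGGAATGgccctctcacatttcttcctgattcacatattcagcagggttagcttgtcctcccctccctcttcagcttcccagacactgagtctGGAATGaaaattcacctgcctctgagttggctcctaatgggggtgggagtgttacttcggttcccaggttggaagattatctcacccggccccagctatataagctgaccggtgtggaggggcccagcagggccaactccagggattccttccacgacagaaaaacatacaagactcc
AMOTL2 promoter 1, chr3:134374398-134374697, minus strand: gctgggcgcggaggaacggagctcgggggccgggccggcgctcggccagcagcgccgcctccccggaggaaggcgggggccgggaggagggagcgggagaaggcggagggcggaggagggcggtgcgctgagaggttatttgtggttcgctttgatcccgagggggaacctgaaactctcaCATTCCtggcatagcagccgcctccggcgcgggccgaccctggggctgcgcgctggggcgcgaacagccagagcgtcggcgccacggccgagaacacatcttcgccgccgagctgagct
AMOTL2 promoter 2, chr3:134375368-134375667, minus strand: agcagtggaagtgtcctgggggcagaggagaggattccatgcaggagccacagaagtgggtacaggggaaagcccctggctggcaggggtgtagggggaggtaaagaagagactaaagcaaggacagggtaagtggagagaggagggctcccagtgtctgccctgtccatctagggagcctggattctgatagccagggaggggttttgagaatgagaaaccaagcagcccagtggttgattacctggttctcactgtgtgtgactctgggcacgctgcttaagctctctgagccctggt

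The CCN2 promoter held 3 TEAD cores, at 169, 104 and 95 bases before the annotated start. The ANKRD1 promoter held 2, at 220 and 128 bases before the start, and also 1 match to the AP-1 core TGANTCA. The first AMOTL2 promoter held 1, written as CATTCC at 69 bases before the start, and the second held 0. Over all 35116 RefSeq promoters of this length, searched on both strands, 14% held at least 1 TEAD core, 1.37% held at least 2 and 0.128% held at least 3, and 7.71% held the AP-1 core. A match is a run of letters and not a measured site, and these GRCh38 positions were not set against the GRCh37 peaks.

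A peak was called where its global irreproducible discovery rate (IDR, a score of rank agreement between the replicates) was 0.05 or less. Peaks above that limit are given as deposited but not called. The −log10 p of each replicate is the authors' own value and is used to describe peaks within their list, in the order in which the list gives its replicates. Positions are in kb from the gene start in the direction of transcription, and negative positions lie upstream. Each condition has 1 list per antibody, so no difference between lists carries a test or a replicate spread. The share of all peaks of the list that did the same is given instead.

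Of the 616 peaks, 162 were called, namely 83 of the 308 H3K27Ac peaks, 47 of the 165 RAD21 peaks and 32 of the 143 PDS5A peaks. None of the 12 IgG peaks was called (0 of 12), and over the whole IgG lists 3.68% of peaks were called in treated Rescue, 1.22% in treated KO, 4.11% in treated WT, 1.05% in untreated Rescue, 4.19% in untreated KO and 0.946% in untreated WT cells. H3K27Ac peaks were called 22 times in Rescue, 12 times in KO and 14 times in WT cells under osimertinib, and 23 times in untreated Rescue, 7 times in untreated KO and 5 times in untreated WT cells. These were 32.4%, 19% and 29.2% of the deposited peaks in the windows in treated Rescue, KO and WT cells, beside 29.3%, 21.7% and 23.1% over the whole lists. Without drug they were 34.3%, 24.1% and 15.2% in Rescue, KO and WT cells, beside 36.6%, 23.2% and 22.6%. The H3K27Ac share near these genes was thus above that of its list in treated WT, treated Rescue and untreated KO cells, and below it in the other 3 lists.

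RAD21 peaks were called 10 times in treated Rescue, 3 times in treated KO and 16 times in treated WT cells, or 32.3%, 15% and 41% of those deposited in the windows, beside 42.2%, 24.7% and 42.9% over the lists. The untreated counts were 9 for Rescue, 7 for KO and 2 for WT cells, or 31%, 29.2% and 9.09%, beside 37.2%, 28.2% and 23.8%. The window share for RAD21 was below that of its list in every condition but untreated KO. PDS5A peaks were called 6 times in treated Rescue, 5 times in treated KO and 7 times in treated WT cells, or 25%, 25% and 19.4%, beside 42.2%, 22.3% and 36.1%. The untreated counts were 13 for Rescue, 0 for KO and 1 for WT cells, or 40.6%, 0% and 6.25%, beside 41.8%, 9.87% and 12.2%. In WT cells the treated list held more called peaks in these windows than the untreated list for all 3 antibodies. The lists as a whole differed in the same direction, with 10214 treated and 5108 untreated WT peaks called for H3K27Ac. For RAD21 there were 16655 treated and 3691 untreated WT calls, and for PDS5A 12573 treated and 1757 untreated WT calls. Peak lists come from bulk cells, so more cells that carry a site and more signal per cell cannot be told apart.

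**Figure D1:**
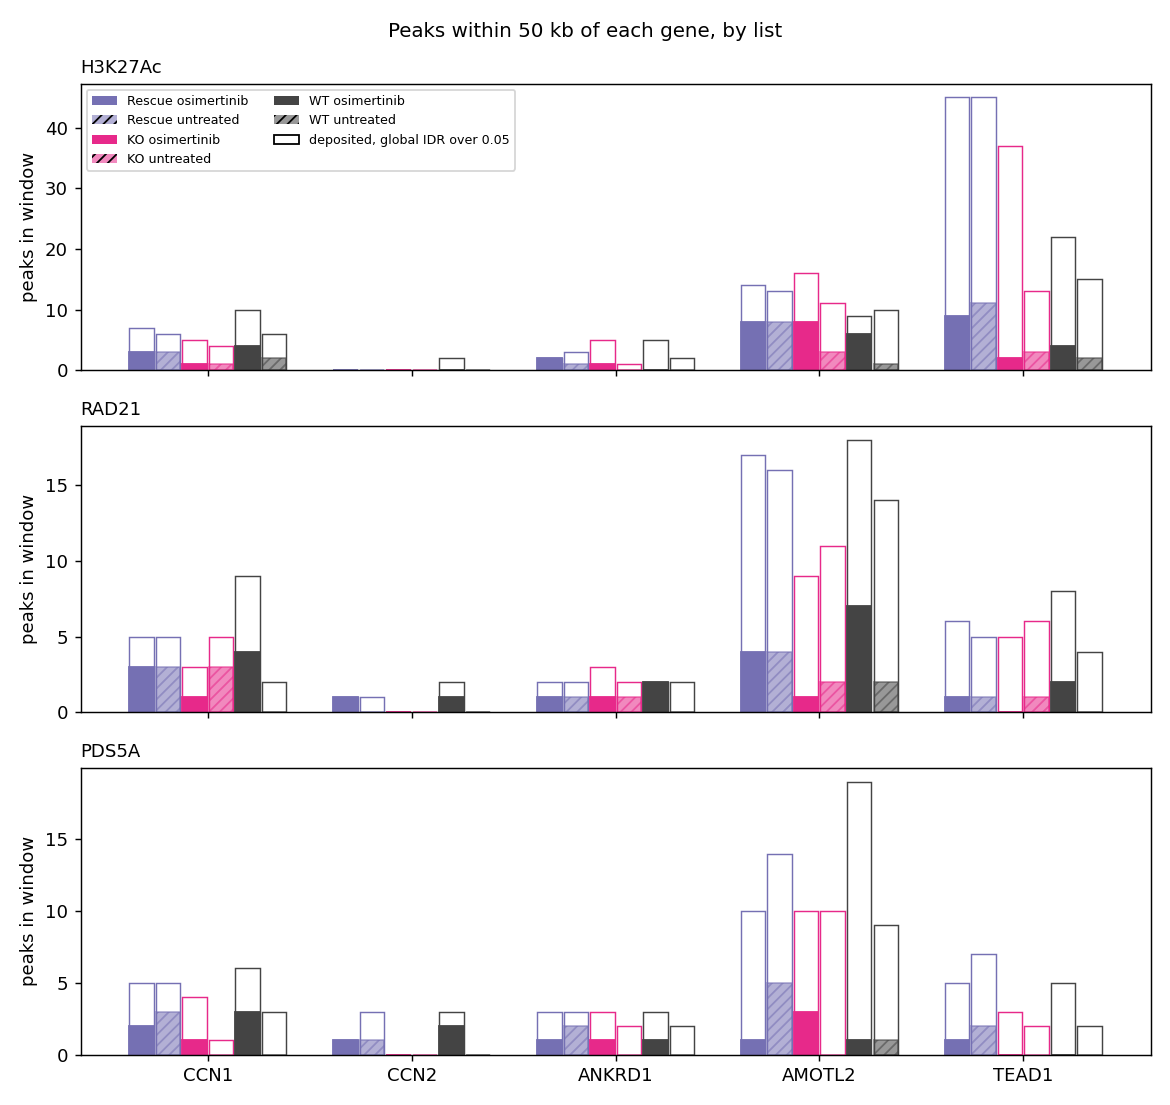
Number of peaks within 50 kb of each gene, by antibody and list (vertical axis, peaks; filled bars are called at a global IDR of 0.05 or less and open bars add the deposited peaks over the limit). TEAD1, whose window is 370.3 kb long, holds most deposited H3K27Ac peaks, with 45 in treated Rescue cells and 15 in untreated WT cells, while CCN2 holds at most 3 peaks in any list.

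The lists differed in how well their replicates matched. Of the 454 uncalled peaks in the windows, 46 had 1 replicate value at least 4 times the other. They were 13 of 225 uncalled H3K27Ac peaks, 20 of 118 RAD21 peaks and 13 of 111 PDS5A peaks. In untreated WT cells this held for 6 of 20 uncalled RAD21 peaks, each with the higher value in the replicate listed first, and 23.7% of uncalled peaks of that whole list differed as much. In treated Rescue cells it held for 4 of 18 uncalled PDS5A peaks, beside 15.2% of that list. In the other 16 lists of the 3 antibodies it held for 2.05% to 8.08% of uncalled peaks. The low count of called RAD21 peaks in untreated WT cells stands beside this gap between its replicates, whose part in the result was not tested.

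**Figure D2:**
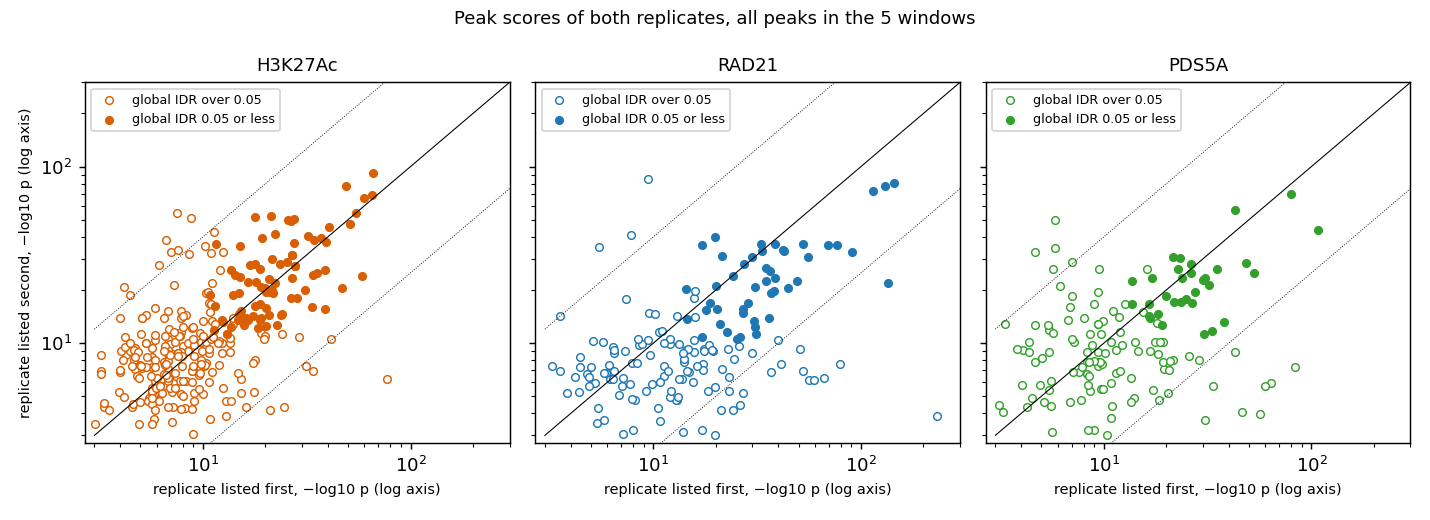
Both replicate values of every H3K27Ac, RAD21 and PDS5A peak in the 5 windows (−log10 p, log axes; horizontal, the replicate listed first; vertical, the replicate listed second), with called peaks filled. The solid line marks equal values and the dotted lines a 4-fold gap; most called peaks lie between the dotted lines, 1 called RAD21 peak (135 and 21.8) lies beyond them, and so do 46 uncalled peaks.

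CCN1 encodes a secreted matricellular protein that binds integrins and is among the most rapidly induced YAP/TEAD targets. Its window held 14 called of 38 deposited H3K27Ac peaks over the 6 lists, 14 of 29 for RAD21 and 9 of 24 for PDS5A, and 1 uncalled IgG peak. As background for the counts of each window, the called share of a whole list was 21.7% to 36.6% for H3K27Ac. It was 23.8% to 42.9% for RAD21 and 9.87% to 42.2% for PDS5A. The steadiest acetylation was just upstream, on the side of DDAH1 (neighbouring genes are named from the RefSeq gene order), at chr1:86041880-86044162 (-4.6 to -2.3 kb), where H3K27Ac was called in all 6 lists. The replicate values there were 25.3 and 28.9 in treated Rescue, 33.9 and 24.4 in treated KO, and 17.9 and 28.2 in treated WT cells. Without drug they were 18.8 and 26.4 in Rescue, 22.7 and 12.7 in KO, and 19 and 13.9 in WT cells. No condition lacked this region, and 3 of 85 merged H3K27Ac sites in the windows (3.53%) were called in all 6 lists, beside 2.09% of all 68103 sites. Whether this region belongs to CCN1 or to the neighbouring DDAH1 was not analysed.

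Cohesin was also found at the upstream region, but the WT lists did not call RAD21 there. RAD21 had 69.3 and 36 in treated Rescue, 21.4 and 31.2 in treated KO, 41.9 and 33.7 in untreated Rescue, and 27 and 14.9 in untreated KO cells, all called. In WT cells it had 52.5 and 6.95 under osimertinib and 79.2 and 7.61 without drug, both uncalled, so a strong first replicate met a weak second one. PDS5A was called in treated Rescue (53 and 24.9), treated WT (24.8 and 17.8) and untreated Rescue cells (13.7 and 22.4), deposited in treated KO (12.6 and 16.6) and untreated WT cells (9.39 and 12.8), and had no peak in untreated KO cells. An uncalled IgG peak of treated WT cells lay here, with 5.06 and 7.65, and its part in these peaks was not tested.

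At the CCN1 start itself, H3K27Ac was deposited in all 6 lists but called only in untreated Rescue (38.9 and 15.5) and untreated WT cells (23.4 and 28). Under osimertinib the peaks over the start had 8.73 and 51.3 in Rescue, 33.9 and 6.93 in KO, and 13.9 and 12.8 in WT cells. The treated Rescue and KO peaks thus had 1 high and 1 low replicate value. RAD21 across the start was called in treated Rescue (114 and 72.9) and untreated KO cells (19.7 and 39.7), and a called untreated Rescue peak began at 1.4 kb (21 and 12.9). PDS5A there was called in treated Rescue (107 and 43.6), treated KO (26.4 and 28.1) and untreated Rescue cells (42.8 and 56.6). In WT cells no cohesin peak was called at the start, with 50.9 and 9.24 for treated and 10.5 and 4.29 for untreated RAD21, and 14.1 and 10.1 for treated and 4.65 and 32.8 for untreated PDS5A.

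Downstream of CCN1, towards ZNHIT6, 2 regions stood apart in treated WT cells. At chr1:86064489-86065229 (18 to 18.8 kb) the treated WT lists called H3K27Ac (16.5 and 22.1), RAD21 (36.3 and 25.5) and PDS5A (19 and 12.6). At chr1:86093638-86095510 (47.2 to 49.1 kb) they called H3K27Ac (17.9 and 52.1), RAD21 (34.7 and 22.6) and PDS5A (16.6 and 13.8). At neither region did the other 5 lists of any of the 3 antibodies hold a deposited peak, called or not, and no IgG peak lay there. Both regions were picked out after their values were seen.

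The class of such triples was set after these 2 regions were seen, so its shares over the lists are a description and no support. Called treated WT peaks that lay on called peaks of both other antibodies and had no deposited peak of their own antibody in the other 5 lists numbered 2 of 14 for H3K27Ac in these windows, beside 0.862% of 10214 over the list. For RAD21 they were 2 of 16, beside 0.835% of 16655, and for PDS5A 2 of 7, beside 1.03% of 12573. The 2 regions are the same for each antibody, and both lie beside 1 gene, so they are a description of CCN1 in 1 pair of replicates per antibody. The lack of a deposited peak alone was nearer the list share for H3K27Ac (2 of 14 beside 9.35%) and RAD21 (2 of 16 beside 11.2%). For PDS5A it stayed farther from it (2 of 7 beside 4.96%).

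A further pair of CCN1 downstream regions had a deposited H3K27Ac peak in every list, called in only some of them. At chr1:86071003-86074732 (24.6 to 28.3 kb) H3K27Ac was deposited in all 6 lists and called only in treated Rescue cells (40.6 and 45.7). At chr1:86076531-86079512 (30.1 to 33.1 kb) it was called in treated Rescue (21.4 and 20.1), treated WT (13.9 and 18.8) and untreated Rescue cells (28.4 and 18). RAD21 at 31.8 to 32.9 kb was called in treated WT (24.3 and 24), untreated Rescue (37.9 and 19.6) and untreated KO cells (30.8 and 12.4), and the treated KO and untreated WT lists had no RAD21 peak there. At 26.1 to 27.3 kb RAD21 was called in treated Rescue (22.6 and 11.6) and treated WT cells (18.7 and 16.9), again with no deposited peak in treated KO or untreated WT cells.

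CCN2, the connective tissue growth factor, is the target most often used to report YAP/TEAD activity, yet its window was the emptiest of the 5. It held 0 called of 2 deposited H3K27Ac peaks over all 6 lists, 2 of 4 for RAD21, 4 of 7 for PDS5A and no IgG peak. Both H3K27Ac peaks were in treated WT cells, at the gene start (7.85 and 11.6) and at -3.6 to -2.7 kb (4.69 and 9.43). The other 5 H3K27Ac lists held no peak within 50 kb of CCN2. The promoter with 3 TEAD cores printed above thus belongs to the gene with the fewest H3K27Ac peaks.

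Cohesin near CCN2 was found past the gene end, on the side of ENPP1, at chr6:132244264-132244958 (27.6 to 28.3 kb). RAD21 there was called in treated Rescue (25.4 and 10.6) and treated WT cells (49.2 and 22.6), and deposited in untreated Rescue cells (15.8 and 19.6). PDS5A was called in treated Rescue (30.2 and 11.3), treated WT (26.2 and 24.9) and untreated Rescue cells (19.9 and 18.4). Neither antibody had a deposited peak there in KO cells, with or without drug, or in untreated WT cells. At 35.8 to 36.4 kb PDS5A was called in treated WT cells (23.6 and 17.1) and deposited in untreated Rescue cells (19.4 and 7.1), with RAD21 deposited in treated WT cells (11.2 and 6.55). No IgG peak lay in the window. The KO lists are also short for both antibodies, with 4372 treated and 5369 untreated KO RAD21 peaks called and 4089 and 911 for PDS5A, and the part of list length was not tested.

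**Figure D3:**
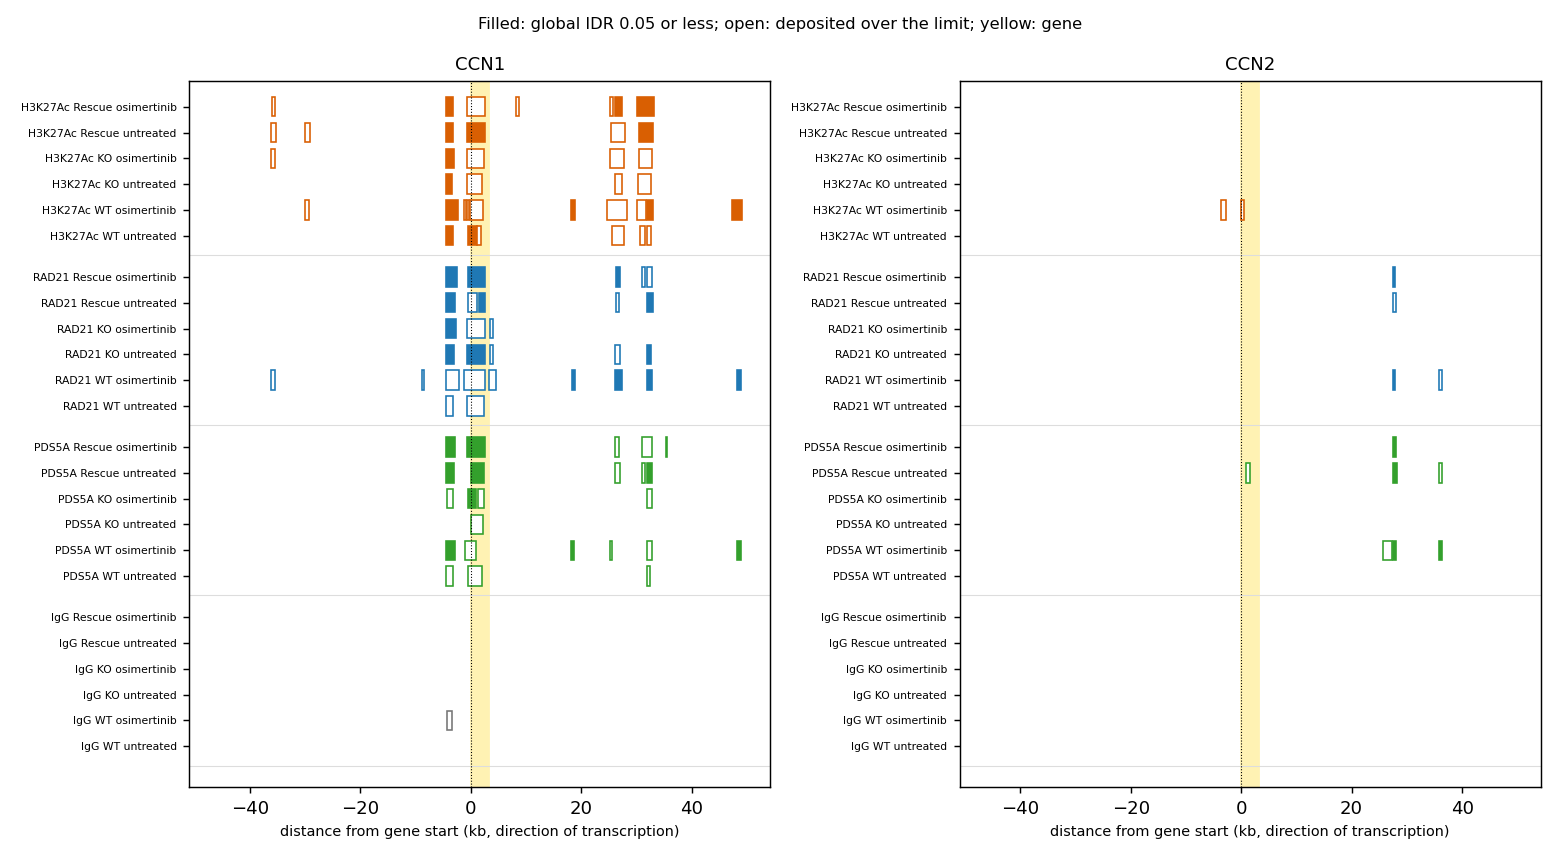
Peaks around CCN1 (left) and CCN2 (right), 1 line per antibody and list (horizontal axis, distance from the gene start in kb in the direction of transcription). Filled boxes are called, open boxes deposited over the limit, and the shaded band is the gene. The treated WT lines alone hold boxes at 18 to 18.8 kb and at 47.2 to 49.1 kb of CCN1, for all 3 antibodies, and the KO lines of CCN2 are empty.

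ANKRD1 encodes an ankyrin repeat protein of muscle sarcomeres and nuclei that YAP/TEAD activity induces strongly in many cell types. Its window held 4 called of 18 deposited H3K27Ac peaks, 6 of 13 for RAD21, 5 of 16 for PDS5A and no IgG peak. At the gene start no peak of any antibody was called. H3K27Ac peaks within 1 kb of the start were deposited in treated KO (10.7 and 8.76, and a second peak with 7.84 and 5.17), treated WT (5.69 and 8.37) and untreated Rescue cells (5.69 and 5.59), and were missing from the other 3 lists. RAD21 was deposited there only in treated KO cells (6.11 and 7.52), and PDS5A only in untreated Rescue (12 and 11.5) and untreated WT cells (4.08 and 9.15). Treated Rescue and untreated KO cells had no deposited peak of H3K27Ac, RAD21 or PDS5A within 1 kb of the start.

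The firmest site of the window was cohesin at the end of the gene, chr10:92671104-92672003 (9 to 9.9 kb), where RAD21 was deposited in all 6 lists and called in 5. It had 55.5 and 30.9 in treated Rescue, 17.1 and 35.9 in treated KO, and 33.2 and 33.2 in treated WT cells. Without drug it had 32.8 and 36.2 in Rescue and 30.8 and 20.8 in KO cells, and an uncalled 23 and 5.34 in WT cells. PDS5A at the gene end was called only in Rescue cells, with 48.2 and 28.4 under osimertinib and 32 and 21.3 without drug. In the other lists it had 8.97 and 16.6 in treated KO, 19.3 and 10.1 in treated WT and 10.1 and 8.8 in untreated KO cells, and it had no deposited peak in untreated WT cells.

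Acetylation in the ANKRD1 window lay on both flanks, and whether a place belongs to ANKRD1 or to a neighbouring gene was not analysed. At chr10:92631485-92632486 (48.5 to 49.5 kb), on the side of RPP30, H3K27Ac was deposited in all 6 lists and called in treated Rescue (13 and 11.2), treated KO (18.5 and 12.1) and untreated Rescue cells (18.8 and 16.7). The same place carried RAD21 in all 6 lists, called in treated WT cells (28.6 and 16.9), and PDS5A in all 6, called in treated KO (16.5 and 16.6), treated WT (35.1 and 26.3) and untreated Rescue cells (30.1 and 22.9). Upstream, at chr10:92689665-92691523 (-10.5 to -8.6 kb), H3K27Ac was called in treated Rescue cells alone (18.9 and 13.5). It was deposited there in treated KO (10.7 and 16.8), treated WT (5.69 and 7.35), untreated Rescue (8.26 and 14.5) and untreated WT cells (6.41 and 5.7), and absent from the untreated KO list.

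AMOTL2, the angiomotin-like protein that restrains YAP and is itself a YAP/TEAD target, had the densest window. It held 34 called of 73 deposited H3K27Ac peaks (beside 21.7% to 36.6% over the whole lists). For RAD21 it held 20 of 85 (beside 23.8% to 42.9%) and for PDS5A 11 of 72 (beside 9.87% to 42.2%). It also held 10 of the 12 IgG peaks: 1 in treated Rescue, 2 in treated KO and 5 in treated WT cells, and 2 in untreated WT cells, none called. At the gene start the IgG values were 3.36 and 8.11 in treated Rescue, 4.66 and 6.15 in treated KO, and 9.6 and 4.87 in treated WT cells. The part of these IgG peaks in the peaks called at the same places was not tested.

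RAD21 at the AMOTL2 start was the only cohesin site of the 5 windows called in all 6 lists, which makes 1 of 45 merged RAD21 sites (2.22%, beside 3.90% of all 44984). It had 76.4 and 35.9 in treated Rescue, 14.4 and 20.3 in treated KO, and 42.6 and 33.2 in treated WT cells. Without drug it had 34.7 and 26.5 in Rescue, 17.9 and 15.3 in KO, and 31.3 and 11.3 in WT cells. PDS5A there was deposited in all 6 lists but called only in treated KO cells (21.7 and 17). In treated Rescue cells it had 56.2 and 3.94, and in treated WT cells 42.9 and 8.94, so a high first replicate again met a low second one. Of the 43 merged PDS5A sites in the windows, 0 were called in all 6 lists, beside 0.983% of all 44465.

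H3K27Ac formed a broad peak at the AMOTL2 start. It ran along most of the gene in treated Rescue, treated WT and untreated WT cells, and ended by 7.3 kb in treated KO, untreated Rescue and untreated KO cells. The peak at the start was called in treated Rescue (46.5 and 20.4, -2.1 to 19 kb), treated KO (19.2 and 39.2, -1.9 to 7.3 kb) and untreated KO cells (21.3 and 52.3, -0.8 to 6.8 kb). It was deposited without a call in treated WT (7 and 32.6), untreated Rescue (77 and 6.23) and untreated WT cells (4.15 and 20.7). Directly past the gene end, at chr3:134067142-134074708 (19.5 to 27.1 kb), H3K27Ac was called in treated Rescue, KO and WT cells and in untreated Rescue cells. The highest values there were 58.5 and 23.9 in treated Rescue, 27.6 and 50.4 in treated KO, 22.3 and 41.7 in treated WT, and 48.9 and 77.1 in untreated Rescue cells. Untreated KO and WT cells held uncalled peaks at this place, the largest with 29.1 and 10.8 in KO and 9.54 and 6.62 in WT cells.

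Farther downstream, towards RYK, a broad acetylated stretch at chr3:134041923-134058415 (35.8 to 52.3 kb) was merged from peaks that overlap across lists. Each of the 6 lists called at least 1 peak in it, though not always at the same place. The called untreated KO peak of the stretch overlapped no called peak of treated KO cells. In treated WT cells the stretch formed 1 peak from 37.5 to 52.3 kb (25.7 and 49.6), while the other lists split it into several. The strongest pieces had 54.8 and 54.9 in treated Rescue, 39.1 and 37.4 in treated KO, 65.9 and 92 in untreated Rescue, 34.1 and 38.4 in untreated KO, and 20.7 and 14.5 in untreated WT cells. Those of untreated Rescue and untreated WT cells overlapped a deposited IgG peak of some condition. The treated WT peak spans the untreated WT piece, so it overlapped that IgG peak too. The part of IgG signal in these peaks was not tested. The strongest pieces of treated Rescue and treated KO cells overlapped no IgG peak. Because lists split such stretches differently, covered length is given beside the counts. Over the 5 windows, called H3K27Ac peaks covered 66.7 kb in Rescue, 31.8 kb in KO and 42.4 kb in WT cells under osimertinib, and 55.6 kb in Rescue, 16.3 kb in KO and 10.7 kb in WT cells without drug. Covered length was not taken over the whole lists, which called 13245, 8511 and 10214 H3K27Ac peaks in treated Rescue, KO and WT cells. The untreated lists called 14446, 5497 and 5108, and the part of list length was not tested.

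The strongest RAD21 values near AMOTL2 lay close to the window edge, at 66.3 to 67.4 kb. They were 130 and 77.4 in treated Rescue, 144 and 81.1 in untreated Rescue, 90.8 and 32.7 in untreated KO, and 135 and 21.8 in untreated WT cells, all called. In treated WT cells a single RAD21 peak from 60.2 to 67.3 kb had 233 and 3.88 and was not called, and in treated KO cells the peak there had 5.49 and 35.1. In untreated WT cells this site and the AMOTL2 start held the only 2 called RAD21 peaks of the 5 windows. Treated WT cells called RAD21 at 7 AMOTL2 places, among them 42.7 to 44.5 kb (38.5 and 36.4), 9.5 to 11.9 kb (37 and 19.2) and 15.2 to 18.6 kb (44.6 and 20.5), where untreated WT cells had uncalled peaks with 12 and 4.95, 14.3 and 9.09, and 59.3 and 6.21.

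**Figure D4:**
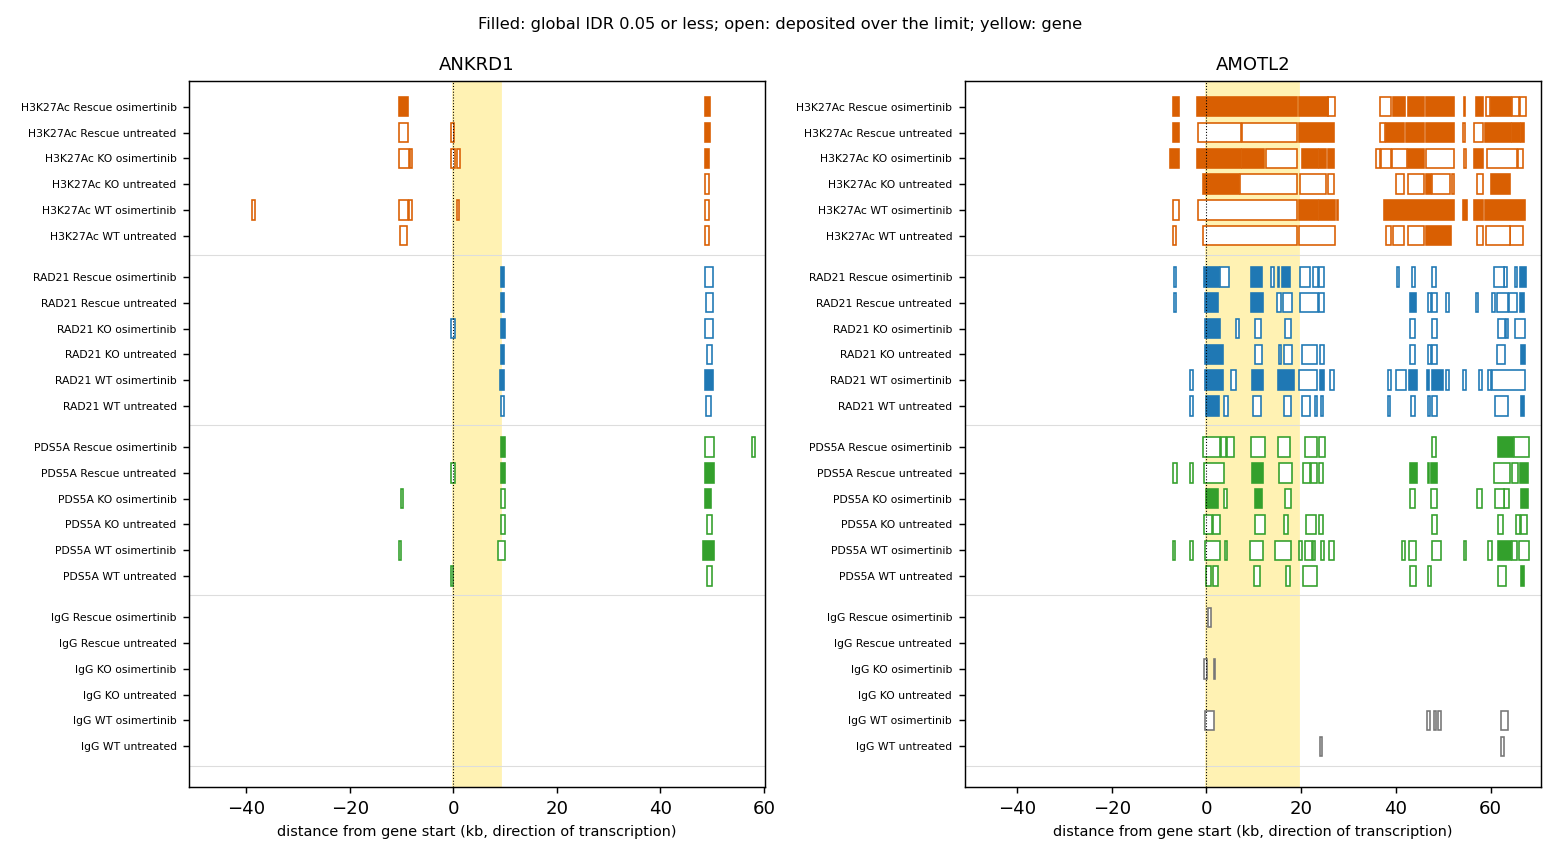
Peaks around ANKRD1 (left) and AMOTL2 (right), 1 line per antibody and list (horizontal axis, distance from the gene start in kb in the direction of transcription). Filled boxes are called, open boxes deposited over the limit, and the shaded band is the gene. RAD21 lies at the ANKRD1 gene end and at the AMOTL2 start in all 6 lists, and 10 IgG boxes lie in the AMOTL2 window.

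TEAD1 encodes the DNA-binding partner through which YAP acts, and its gene is long, so its window spans 370.3 kb. It held 31 called of 177 deposited H3K27Ac peaks, 5 of 34 for RAD21 and 3 of 24 for PDS5A, and 1 uncalled IgG peak. At the gene start, chr11:12695236-12697183 (-0.7 to 1.2 kb), H3K27Ac was called in all 6 lists. The values were 26.6 and 49.3 in treated Rescue, 19.8 and 20.5 in treated KO, and 17.9 and 16.3 for the higher of 2 called peaks in treated WT cells. Without drug they were 21.4 and 30.1 in Rescue, 14.8 and 13.5 in KO, and 19 and 20.7 in WT cells. The IgG peak of treated WT cells lies there, with 5.06 and 3.62, and its part was not tested. At 1.5 to 2.4 kb H3K27Ac was called in 5 lists and missed in treated WT cells alone (7.26 and 11.6).

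Over the TEAD1 window, gene start included, Rescue cells had more called H3K27Ac peaks than KO or WT cells with and without drug. The window held 9 called of 45 deposited peaks in treated Rescue, 2 of 37 in treated KO and 4 of 22 in treated WT cells, and 11 of 45 in untreated Rescue, 3 of 13 in untreated KO and 2 of 15 in untreated WT cells. Over the whole lists the called share was 29.3% in treated Rescue, 21.7% in treated KO and 23.1% in treated WT cells, and 36.6% in untreated Rescue, 23.2% in untreated KO and 22.6% in untreated WT cells. In each of the 6 lists the called share of the TEAD1 window lay below that of the list, Rescue lists included. At 18.2 to 20.5 kb the treated Rescue peak had 18.1 and 22.1 and the untreated Rescue peak 27 and 31.5, and at 49.6 to 50.9 kb they had 27.9 and 27.4, and 38.9 and 25.9. The treated WT list called the second of these places (11.4 and 16.3), and both places had uncalled peaks in both KO lists. At 72 to 72.7 kb H3K27Ac was called in treated (20.1 and 15.8) and untreated Rescue cells (17.5 and 14.2), deposited in treated KO (8.9 and 6.93) and untreated WT cells (6.63 and 7.62), and without a peak in untreated KO and treated WT cells. At 93.8 to 95.4 kb treated WT cells called a peak (10.8 and 18.8), as did untreated Rescue cells over the same place (21 and 19.5).

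The higher Rescue counts at TEAD1 stand beside longer Rescue lists, which call 13245 H3K27Ac peaks in treated Rescue, 8511 in treated KO and 10214 in treated WT cells. The untreated lists call 14446 for Rescue, 5497 for KO and 5108 for WT cells. Of the called Rescue peaks in the TEAD1 window under osimertinib, 7 of 9 had no called peak in KO cells (beside 51.4% over the list), and 7 of 9 had none in WT cells (beside 56.5%). Without drug it was 9 of 11 against KO cells (beside 69.4%) and 9 of 11 against WT cells (beside 71.5%).

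Cohesin at TEAD1 was sparse. RAD21 at the gene start was called in treated Rescue (26.9 and 15.5) and untreated KO cells (14.5 and 13.7), and PDS5A at the start was never called, with 15.5 and 15 in treated Rescue cells as its highest pair. Past the gene end, towards RASSF10, at chr11:12985350-12986196 (289.4 to 290.2 kb), RAD21 was deposited in all 6 lists and called in treated WT (52.5 and 36.4) and untreated Rescue cells (36 and 13.8). PDS5A there was also deposited in all 6, and called in treated Rescue (33 and 11.7) and untreated Rescue cells (23.7 and 23.3). The treated WT PDS5A peak at this place had 16.2 and 26.3 and was not called. At 214.1 to 214.7 kb treated WT cells called RAD21 (20 and 21.1), with a deposited peak in untreated KO cells (11.2 and 10) and none in the other 4 lists.

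**Figure D5:**
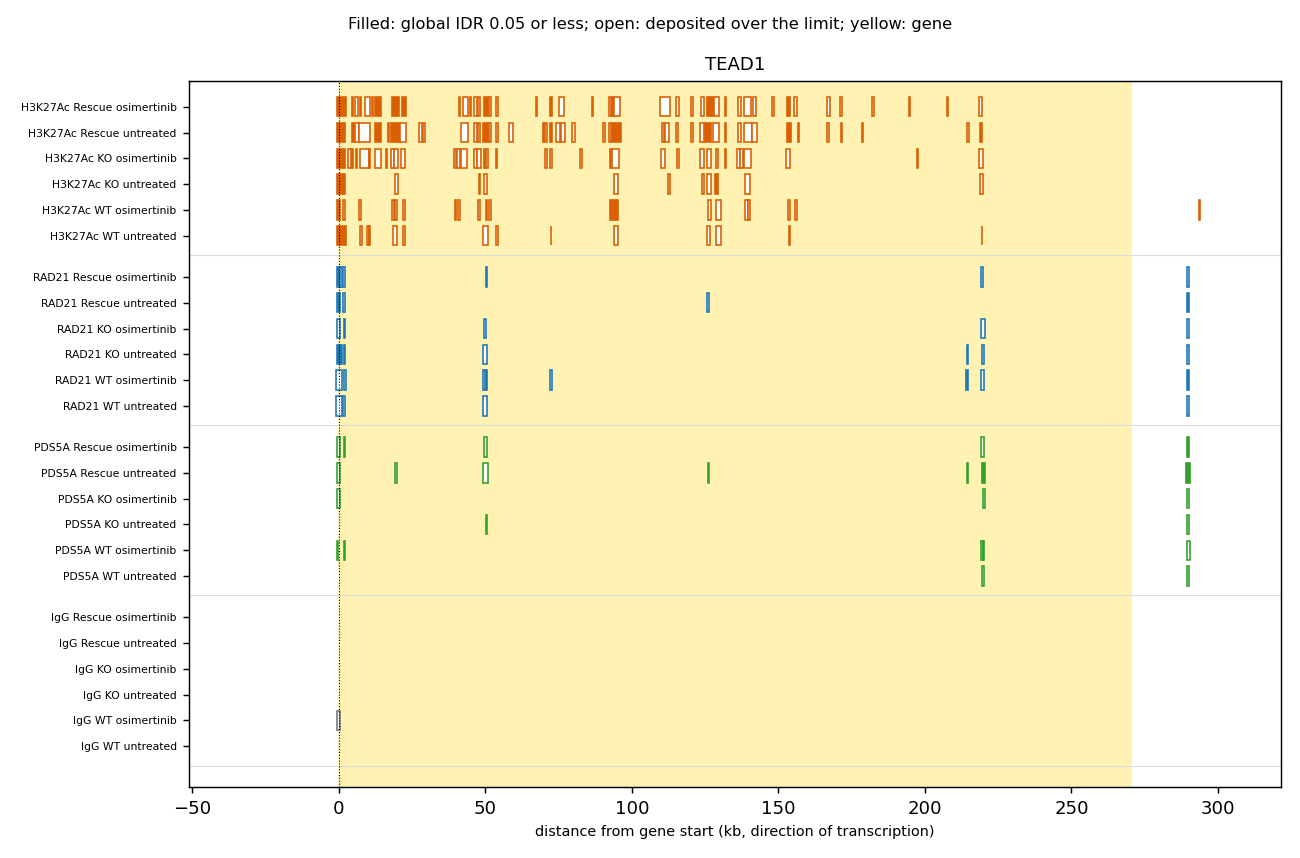
Peaks around TEAD1, 1 line per antibody and list (horizontal axis, distance from the gene start in kb in the direction of transcription). Filled boxes are called, open boxes deposited over the limit, and the shaded band is the gene. H3K27Ac is called at the gene start in all 6 lists, and RAD21 lies past the gene end at 289.4 to 290.2 kb in all 6.

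Osimertinib was compared with no treatment within each genotype, where a peak counts as gained if it was called under the drug with no called peak overlapping it without the drug, and as lost in the reverse case. In WT cells 10 of 14 H3K27Ac peaks were gained (71.4%, beside 68.5% over the list), with 5 near AMOTL2, 3 near CCN1 and 2 near TEAD1, and 2 of 5 were lost (beside 37.1%). For RAD21 in WT cells 15 of 16 were gained (93.8%, beside 80.6%): 6 near AMOTL2, 4 near CCN1, 2 near ANKRD1, 2 near TEAD1 and 1 near CCN2, and 1 of 2 was lost (beside 12.2%). For PDS5A in WT cells all 7 called peaks were gained (beside 88%), and the 1 untreated call was lost (beside 14.2%). The WT gains are close to what the whole lists show. The untreated WT lists are short, and the part of list length was not tested. Of the gained WT peaks, 3 for H3K27Ac, 6 for RAD21 and 4 for PDS5A had no deposited peak at all without drug, beside 25.2%, 41.8% and 36.3% of called peaks over the lists. All 4 gained RAD21 peaks near CCN1 were of this kind.

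The pattern in KO and Rescue cells differed by antibody. In KO cells 8 of 12 H3K27Ac peaks were gained (66.7%, beside 55%), 7 of them near AMOTL2, and 3 of 7 were lost (42.9%, beside 30%). RAD21 in KO cells gained 0 of 3 (beside 30.7%) and lost 4 of 7 (57.1%, beside 43.6%), with 2 of the losses near CCN1. PDS5A in KO cells had 5 of 5 gained (beside 81.5%) against an untreated list with 0 called peaks in the windows. In Rescue cells 5 of 22 H3K27Ac peaks were gained (22.7%, beside 28.6%) and 6 of 23 lost (26.1%, beside 35.4%). RAD21 in Rescue cells gained 4 of 10 (40%, beside 36.6%) and lost 3 of 9 (33.3%, beside 23.3%). PDS5A in Rescue cells gained 1 of 6 (16.7%, beside 21.5%) and lost 8 of 13 (61.5%, beside 35.9%), 5 of the 8 near AMOTL2.

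KO cells were compared with WT cells within each treatment, which asks what the loss of METTL7A goes with at these genes. Under osimertinib 14 of the 16 RAD21 peaks called in WT cells had no called peak in KO cells (87.5%, beside 77%), and 8 of them had no deposited KO peak (beside 34.3% of called peaks). These losses covered all 4 called peaks near CCN1, the 1 near CCN2, 6 of 7 near AMOTL2, 1 of 2 near ANKRD1 and both near TEAD1. The reverse held for 1 of 3 KO peaks (beside 11.9%), at the CCN1 upstream region. For PDS5A 6 of 7 WT peaks were lost in KO cells (85.7%, beside 73.5%) and 4 of 5 KO peaks were gained (80%, beside 18.2%), with 3 near AMOTL2 and 1 near CCN1. All 4 gained PDS5A peaks overlapped deposited but uncalled WT peaks, so at none of these places was the WT list empty (beside 1.03% of called peaks with no deposited WT peak). For H3K27Ac 5 of 12 KO peaks were gained (41.7%, beside 46.4%) and 7 of 14 WT peaks lost (50%, beside 55.4%).

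Without drug the KO and WT lists were closer in length. H3K27Ac had 3 of 7 KO peaks gained (42.9%, beside 40.9%) and 1 of 5 WT peaks lost (20%, beside 36.5%). RAD21 had 5 of 7 KO peaks gained (71.4%, beside 47.3%), 3 of them near CCN1, and 0 of 2 WT peaks lost (beside 23.6%). These RAD21 gains stand beside the unequal replicates of the untreated WT list given above. PDS5A had 0 called KO peaks, and its 1 WT call, near AMOTL2, had no called counterpart in KO cells (beside 62.9%).

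Rescue cells were compared with KO cells, which asks what overexpressed METTL7A goes with in the knockout background. Under osimertinib 13 of 22 H3K27Ac peaks were gained (59.1%, beside 51.4%), 7 of them near TEAD1, and 1 of 12 lost (8.33%, beside 24.2%). RAD21 gained 7 of 10 (70%, beside 65%) and lost 0 of 3 (beside 10.8%), and PDS5A gained 5 of 6 (83.3%, beside 69.1%) and lost 4 of 5 (80%, beside 13%). The 4 lost PDS5A peaks, 3 near AMOTL2 and 1 near ANKRD1, all lay on deposited Rescue peaks over the limit (beside 0.342% with no deposited peak). Without drug 18 of 23 H3K27Ac peaks were gained (78.3%, beside 69.4%), 9 near TEAD1 and 6 near AMOTL2, and 2 of 7 lost (28.6%, beside 18.3%). RAD21 gained 3 of 9 (33.3%, beside 50%) and lost 1 of 7 (14.3%, beside 13.9%). PDS5A gained 13 of 13 (beside 94.2%), and 6 of the 13 had no deposited KO peak (beside 51.7%).

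Rescue cells were also set beside WT cells. Under osimertinib 10 of the 16 RAD21 peaks called in WT cells had no called Rescue peak (62.5%, beside 48.5%), among them 3 of 4 near CCN1, while the CCN2 downstream site was called in both. In the other direction 4 of 10 Rescue RAD21 peaks were gained (40%, beside 22.4%). PDS5A had 3 of 6 gained (50%, beside 32.2%) and 4 of 7 lost (57.1%, beside 38.1%), and H3K27Ac had 12 of 22 gained (54.5%, beside 56.5%) and 4 of 14 lost (28.6%, beside 43.7%). Of the lost peaks, 2 for H3K27Ac, 4 for RAD21 and 3 for PDS5A had no deposited Rescue peak (beside 15.6%, 19.6% and 11.7% of called peaks). Without drug H3K27Ac had 18 of 23 gained (78.3%, beside 71.5%), RAD21 7 of 9 (77.8%, beside 64.1%) and PDS5A 12 of 13 (92.3%, beside 88.7%). Without drug 0 of 5 WT peaks were lost for H3K27Ac (beside 18.5%), 0 of 2 for RAD21 (beside 10.6%) and 0 of 1 for PDS5A (beside 9.45%). Comparisons that use the same lists are not independent of each other.

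The overlap of antibodies near these genes lay below that of the whole lists for some pairs and above it for others, as shares without a test. Summed over the 6 conditions, 18 of 47 called RAD21 peaks lay on a called PDS5A peak of the same cells (38.3%, beside 56.6% of all called RAD21 peaks), and 18 of 32 called PDS5A peaks on a called RAD21 peak (56.2%, beside 63.3%). By deposited RAD21 peaks the share for PDS5A was 31 of 32 (96.9%, beside 90.5%). On called H3K27Ac lay 23 of 47 RAD21 peaks (48.9%, beside 38.2%) and 18 of 32 PDS5A peaks (56.2%, beside 34.4%), while 19 of 83 H3K27Ac peaks lay on a called RAD21 peak (22.9%, beside 33.6%). Peaks at 1 place in several conditions count once per condition, so these shares rest on fewer places than peaks.

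Deposited IgG peaks of the same cells overlapped 15 of the 162 called peaks: 7 of 83 for H3K27Ac (8.43%, beside 12.5%), 5 of 47 for RAD21 (10.6%, beside 14.4%) and 3 of 32 for PDS5A (9.38%, beside 13.7%). Treated WT cells gave 10 of these 15 overlaps. In that condition IgG lay on 5 of 14 called H3K27Ac peaks (beside 36.3% over the list), 3 of 16 RAD21 peaks (beside 27.9%) and 2 of 7 PDS5A peaks (beside 30%), and in every other list on 0 or 1. The part of IgG signal in the treated WT calls was not tested. Deposited IgG peaks of any condition overlapped 29 of the 83 called H3K27Ac peaks (34.9%, beside 43.6% over the lists), 15 of 47 for RAD21 (31.9%, beside 39.9%) and 8 of 32 for PDS5A (25%, beside 35.2%). Across conditions, 17 of 85 merged H3K27Ac sites (20%, beside 19.6%), 13 of 45 RAD21 sites (28.9%, beside 21.9%) and 7 of 43 PDS5A sites (16.3%, beside 13.3%) were deposited in all 6 lists. Called in at least 1 list were 28 H3K27Ac sites (32.9%, beside 31.1%), 20 RAD21 sites (44.4%, beside 44.2%) and 17 PDS5A sites (39.5%, beside 43.2%). In these shares the windows of the 5 genes lie close to the lists as a whole. Called in treated WT cells alone were 3 H3K27Ac sites (3.53%, beside 3.78%), 7 RAD21 sites (15.6%, beside 14.2%) and 3 PDS5A sites (6.98%, beside 6.25%).

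The limits on IDR and distance cut close to some peaks. Just inside the IDR limit were an untreated Rescue H3K27Ac peak at the CCN1 start (global IDR 0.0489), a treated Rescue H3K27Ac peak at TEAD1 (0.0475) and a treated WT RAD21 peak at AMOTL2 (0.0469). Just outside were a treated Rescue H3K27Ac peak at AMOTL2 (0.0507), an untreated KO H3K27Ac peak at TEAD1 (0.0514) and a treated WT PDS5A peak at AMOTL2 (0.0519). Peaks were placed here by their end nearest the gene. Within 5 kb inside the window edges lay 18 peaks near AMOTL2, 8 of them called, and 1 near ANKRD1. Broader peaks that only reached into this zone were not counted. Within 5 kb outside lay 12 peaks near ANKRD1, 7 of them called, 5 near AMOTL2, 1 of them called, and 3 near CCN1, none called.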

How the data were processed

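CUT&RUN for H3K27Ac, RAD21, PDS5A, IgG and H2A was run on 60 samples in 30 groups of 2, and the 12 H2A samples were not used here. The submitters' processing notes name MACS2 2.2.7.1 (peak calling software), Bowtie2 2.4.2 (alignment), deepTools 3.5.1, bedtools 2.30, SAMtools 1.16, FastQC, Trimmomatic and the build GRCh37. Their order and settings, and the IDR version, are not given in the sources used here. All 24 deposited lists hold, for peaks matched between 2 replicates, a −log10 p value per replicate and the −log10 global IDR, as made by the authors. Depth is unknown, since peak lists hold no totals of reads (the labels planned 20 M pairs), and no counting interval can be given.

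Peaks on chromosomes 1 to 22 and X that overlap a gene or its 50 kb flanks by at least 1 bp were taken with Python 3.11.15, numpy 2.4.6 and pandas 2.3.3. Figures were drawn with matplotlib 3.10.9. A peak was called at a global IDR of 0.05 or less (−log10 of at least 1.301). Which listed replicate is label replicate 1 is not stated, so values follow the order of the list. Gained, lost and shared peaks were set by overlap of 1 bp or more. Named places were drawn from the peaks within 1 kb of the gene start and the strongest peak of each window, antibody and list. Not every strongest peak is named, and several near AMOTL2 are left out. The other places named were merged sites chosen after their values were seen. Overlap code was tested on a simulated copy of the treated WT RAD21 list, where 200 of 200 removed regions were recovered and 0 others were reported. No test compares groups, since each group gave 1 list. Genes, windows and lists were chosen with earlier results of these data known. The planned count over other Hippo pathway genes and the exon or intron of a peak need a GRCh37 annotation and were not analysed here. The alternatives used all deposited peaks, an IDR limit of 0.01, windows without peaks on IgG peaks, windows of 10 and 100 kb, 50% overlap, and the boundaries of each replicate.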

Additional observations from a re-analysis of the deposited data

Results flagged for a closer look

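The genotypes differed in how the number of called peaks in the windows changed under osimertinib, and these differences between genotypes were not tested. For H3K27Ac the treated minus the untreated count was -1 in Rescue cells (22 and 23), 5 in KO cells (12 and 7) and 9 in WT cells (14 and 5). For RAD21 it was 1 in Rescue cells (10 treated and 9 untreated), -4 in KO cells (3 and 7) and 14 in WT cells (16 and 2). For PDS5A it was -7 in Rescue cells (6 treated and 13 untreated), 5 in KO cells (5 and 0) and 6 in WT cells (7 and 1). Each count comes from 1 list. In all 9 pairs the number of called peaks in the whole list differed in the same direction as in the windows, and the part of list length was not tested.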

How the results depend on the processing

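The count of called peaks per list depended on the limits, while its direction under osimertinib mostly did not. Leaving out each replicate's boundaries in turn changed 0 of 18 counts, which stayed at 22, 12, 14, 23, 7 and 5 (H3K27Ac), 10, 3, 16, 9, 7 and 2 (RAD21), and 6, 5, 7, 13, 0 and 1 (PDS5A; lowest and highest values alike; treated Rescue, KO and WT, then untreated Rescue, KO and WT, the order of all lists of 6 here). Requiring 50% of a peak inside the window changed none of the 18 either. With the boundaries of a single replicate the calls still rested on both replicates, so that setting moves peak edges only and does not test the calls. In WT cells the treated list held more peaks than the untreated list for all 3 antibodies under every alternative run. The sign for H3K27Ac in Rescue cells turned with every deposited peak (68 treated and 67 untreated), RAD21 in KO cells was level at a global IDR of 0.01 (2 and 2), and RAD21 in Rescue cells was level in windows of 100 kb (11 and 11) and without peaks on IgG (7 and 7).

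With every deposited peak the counts were 68, 63, 48, 67, 29 and 33 (H3K27Ac), 31, 20, 39, 29, 24 and 22 (RAD21), and 24, 20, 36, 32, 15 and 16 (PDS5A). At a global IDR of 0.01 they were 11, 7, 5, 13, 3 and 1 (H3K27Ac), 8, 2, 10, 6, 2 and 1 (RAD21), and 4, 3, 2, 7, 0 and 0 (PDS5A). Without peaks on a deposited IgG peak they were 16, 8, 8, 18, 2 and 2 (H3K27Ac), 7, 1, 12, 7, 4 and 1 (RAD21), and 4, 4, 5, 10, 0 and 1 (PDS5A). In windows of 10 kb they were 14, 9, 7, 15, 5 and 4 (H3K27Ac), 7, 3, 6, 5, 5 and 1 (RAD21), and 3, 3, 1, 5, 0 and 0 (PDS5A). In windows of 100 kb 1 of 18 differed by over 1.5 times, RAD21 in treated KO cells with 5.

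Gained and lost peaks moved by over 1.5 times in 40 of 54 counts with every deposited peak, in 28 at a global IDR of 0.01, in 9 without peaks on IgG and in 0 with 50% overlap. With every deposited peak the moved counts were, for H3K27Ac, osimertinib against untreated Rescue 11 gained and 13 lost, osimertinib against untreated KO 35 gained and 1 lost, osimertinib against untreated WT 21 gained and 5 lost, treated KO against WT 24 gained and 11 lost, untreated KO against WT 5 gained and 11 lost, treated Rescue against KO 10 lost, untreated Rescue against KO 42 gained and 0 lost, treated Rescue against WT 30 gained and 12 lost, untreated Rescue against WT 37 gained. For RAD21, osimertinib against untreated Rescue 7 gained, osimertinib against untreated KO 3 gained and 7 lost, treated KO against WT 2 gained and 22 lost, untreated KO against WT 3 lost, treated Rescue against KO 13 gained and 3 lost, untreated Rescue against KO 7 gained and 4 lost, treated Rescue against WT 18 lost, untreated Rescue against WT 4 lost. For PDS5A, osimertinib against untreated Rescue 4 gained, osimertinib against untreated KO 9 gained and 4 lost, osimertinib against untreated WT 21 gained and 2 lost, treated KO against WT 2 gained and 19 lost, untreated KO against WT 5 gained and 6 lost, treated Rescue against KO 9 gained, treated Rescue against WT 5 gained and 14 lost. At a global IDR of 0.01 they were, for H3K27Ac, osimertinib against untreated WT 5 gained and 1 lost, treated KO against WT 3 gained and 1 lost, treated Rescue against KO 8 gained and 4 lost, untreated Rescue against KO 11 gained and 1 lost, untreated Rescue against WT 1 lost. For RAD21, osimertinib against untreated Rescue 1 lost, osimertinib against untreated KO 1 gained and 1 lost, treated KO against WT 9 lost, untreated KO against WT 1 gained, untreated Rescue against KO 0 lost, treated Rescue against WT 6 lost. For PDS5A, osimertinib against untreated Rescue 2 gained and 5 lost, osimertinib against untreated KO 3 gained, osimertinib against untreated WT 2 gained and 0 lost, treated KO against WT 2 lost, untreated KO against WT 0 lost, treated Rescue against KO 3 gained and 2 lost, untreated Rescue against KO 7 gained, treated Rescue against WT 1 lost, untreated Rescue against WT 7 gained. Without peaks on IgG they were, for H3K27Ac, osimertinib against untreated KO 1 lost, untreated KO against WT 1 gained, untreated Rescue against KO 1 lost. For RAD21, treated KO against WT 0 gained, untreated KO against WT 3 gained, untreated Rescue against KO 0 lost, treated Rescue against WT 2 gained. For PDS5A, osimertinib against untreated Rescue 0 gained, treated Rescue against KO 3 gained. The alternatives change which peaks count, and no other cause was tested. No paired analysis was possible because each list joins both replicates of a group. Depth limits every absence: a place with no deposited peak may hold signal under the p-value limit of the lists in either replicate. Values printed for a place rest on 1 list each.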
